A study of Drosophila melanogaster with 28 samples.

Results

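A set of 8 genes of meiotic recombination and break repair were followed by RNA-seq and Ribo-seq while germline stem cells differentiated in the Drosophila ovary. They were chosen by name as genes of this pathway, and all 8 of 8 (mei-W68, mei-P22, vilya, mei-218, rec, mei-9, okr and spn-B) had a row in both tables, among 17783 genes in the RNA-seq table and 13968 in the Ribo-seq table. RNA-seq measures mRNA level. Ribo-seq counts the short mRNA pieces that ribosomes protect, called footprints, and so measures how much of an mRNA is under translation. Both are given as FPKM, a fragment count scaled to the length of the gene and to the size of the library.

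All samples were whole adult ovaries of a single genotype. In a w background the flies had 1 copy of the driver nosP-GAL4-NGT40 and were mutant for bam on both homologues (allele bam86 in the labels, bamΔ86 in the study's methods), with the transgene P{w[+mC]=hs-bam.O}11d on one of them, so the no HS control carried every allele and transgene of the others. Without bam, the switch gene for differentiation, the germline stays as cells resembling germline stem cells. The hs-bam transgene supplies bam after heat shock, and its promoter also acts in the somatic cells that these ovaries keep. Females received 1 h at 37 C and 2 h at 34 C and were returned to 25 C, and ovaries were taken at 0.5, 5, 9, 18, 28 and 38 h after heat shock (AHS) or without heat shock (no HS), with 2 biological replicates per time point and assay, 28 libraries in all. Ovaries at 5 and 9 h AHS were at the start of the cyst divisions and those at 38 h AHS at their end, with germ cells less in step at the later times.

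Meiotic recombination starts with programmed double-strand breaks, made in flies by Mei-W68, the relative of Spo11, with its partner Mei-P22 and the RING finger protein Vilya. The broken ends are paired with the homologous chromosome by a set of strand exchange proteins, among them Spn-B and Spn-D, with the Rad54 motor Okr. The MCM-like proteins Mei-217, Mei-218 and Rec protect crossover intermediates from the Bloom helicase, and the Mei-9 endonuclease is needed to resolve them into crossovers. In the normal ovary these breaks appear only after the cyst divisions are complete, in cysts that have begun to assemble the synaptonemal complex, while okr and mei-9 also serve DNA repair in dividing cells.

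The deposited tables hold 1 FPKM per gene and time point, pooled over both replicates, with 95% bounds. Where 7 values of a gene are listed, they stand in the order no HS, then 0.5, 5, 9, 18, 28 and 38 h AHS. No value per replicate was used, so no test, SD or p-value is given here, and errors are standard errors (SE) taken as the distance from the value to its upper bound divided by 2. A gene was called higher or lower when 2 time points were over 1.6-fold apart and at least one of them exceeded 10 FPKM. In the RNA-seq, 6 of the 8 genes exceeded 10 FPKM at some time point (mei-P22 and spn-B did not). Footprints of 5 genes did (those of mei-P22, mei-218 and spn-B did not). Calls among the 8 genes are read against the share of all genes tested. The RNA-seq background held 6441 genes and that of the Ribo-seq 6383, but 6441 for calls at 0.5 h AHS.

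The induction and the tissue were checked first. RNA-seq of bam stood at 23.7 FPKM without heat shock, reached 1053 FPKM at 0.5 h AHS and had returned to 18.1 FPKM by 38 h AHS, so the transgene came on and went off in the labelled order. The germline markers vas and aub were present throughout, vas between 184 and 211 FPKM in the RNA-seq. Somatic cells were present as well: 7 escort and cap cell markers summed to between 279 and 377 FPKM, and 6 muscle sheath markers to between 801 and 1586 FPKM. Of 4 fat body and haemocyte markers, Col4a1 (78.5 FPKM at no HS) and Hml (17.3) were present in the RNA-seq, Lsp2 (6.85) and Fbp1 (4.45) were low there, and the last pair were at or near 0 in the Ribo-seq.

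**Figure D1:**
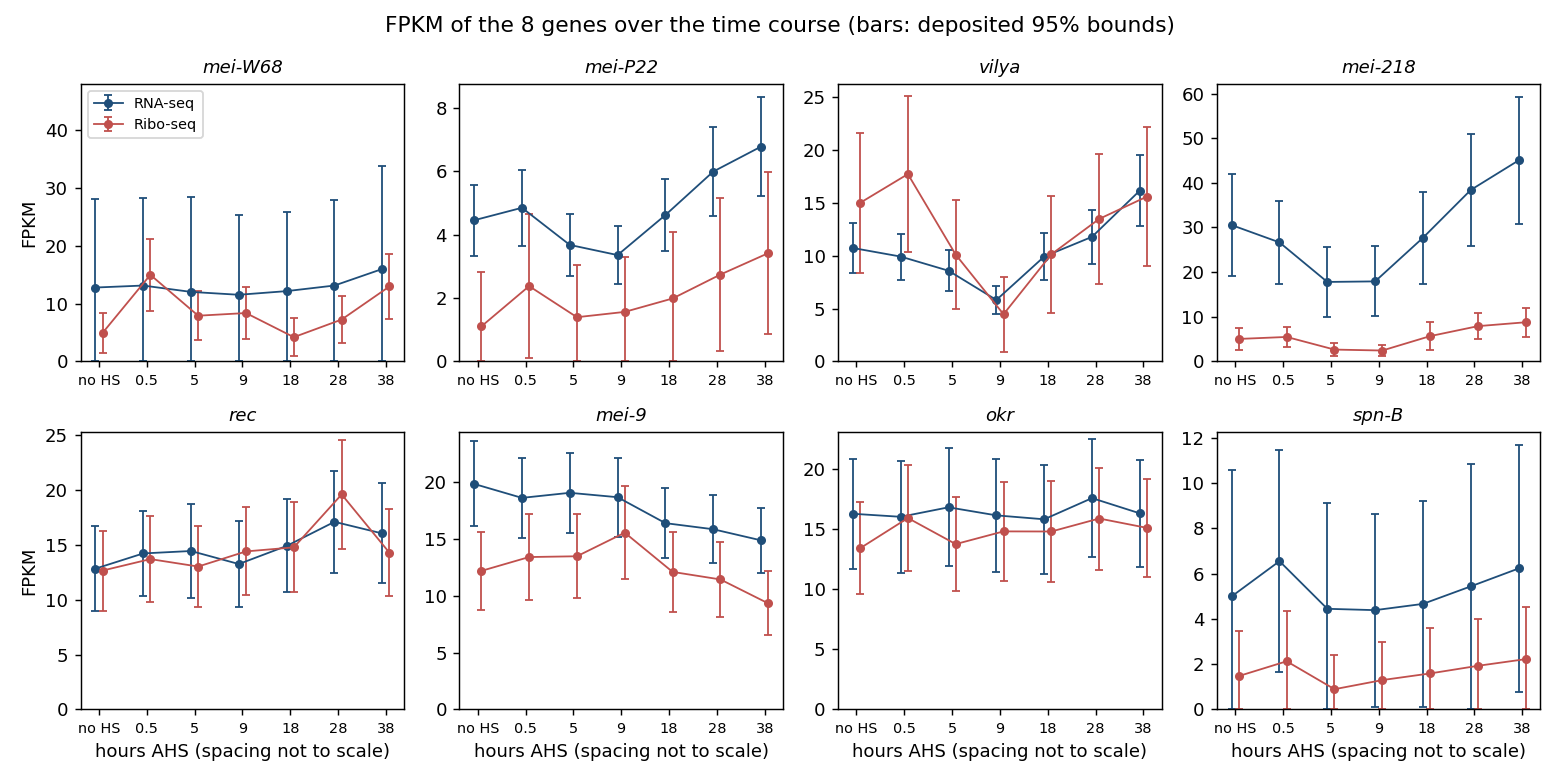
FPKM (y axis) of each of the 8 genes at no HS and at the 6 times AHS (x axis, spacing not to scale), RNA-seq in blue and Ribo-seq in red, with bars for the deposited 95% bounds. vilya and mei-218 dip at 5 or 9 h AHS and are highest in the RNA-seq at 38 h AHS, okr stays between 15.8 and 17.6 FPKM in the RNA-seq, and the bounds of mei-W68 and spn-B in the RNA-seq reach down to or close to 0.

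In the RNA-seq, vilya and mei-218 were the members that passed the call thresholds at any comparison with no HS or between other times. There, mei-218 was the 1 member called lower at 5 h AHS, where 1.02% of all genes tested were called lower. At 9 h AHS vilya and mei-218, 2 of the 8, were called lower, beside 1.65% of all genes. No member was called higher at 9 h AHS (0.745% of all genes), and none was called higher (1.77%) or lower (0.528%) at 38 h AHS. From 9 to 38 h AHS vilya and mei-218 were called higher, beside 3.70% of all genes. Between any pair of 6 time points (0.5 h AHS left out) the same 2 members were called, beside 9.95% of all genes.

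vilya encodes a RING finger protein that joins the break machinery and marks crossover sites. It is a short gene of 2 coding exons on the plus strand of the X chromosome (dm6, chrX:2726678-2727568) that overlaps no annotated gene. From no HS onwards the RNA-seq FPKM was 10.7, 9.91, 8.57, 5.81, 9.91, 11.8 and 16.1. The gene was lowest at 9 h AHS and highest at 38 h AHS, with no HS in between. The value at 9 h AHS was 1.85-fold below no HS (log2 change -0.88, SE 0.23), and the bounds did not overlap (4.45 to 7.17 against 8.37 to 13.1 FPKM). The value at 38 h AHS was 2.78-fold above that at 9 h AHS (log2 change 1.48, SE 0.23), again with bounds apart, and 1.51-fold above no HS with bounds that overlapped. In bulk ovary RNA, fewer cells that express a gene and less RNA per cell cannot be told apart.

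The footprints on vilya were also lowest at 9 h AHS, but highest at 0.5 h AHS. Ribo-seq FPKM was 15.0, 17.7, 10.1, 4.46, 10.1, 13.5 and 15.6. At 9 h AHS the footprints were 3.36-fold below no HS (log2 change -1.75, SE 0.66) with bounds apart, and vilya was the 1 member called lower there, beside 6.36% of all genes. By 38 h AHS they were close to the no HS level, 3.5-fold above 9 h AHS with bounds apart. It was also the 1 member called higher from 9 to 38 h AHS in the Ribo-seq, beside 7.21% of all genes.

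mei-218 encodes an MCM-like protein of the complex that opposes the Bloom helicase at crossover sites. It was the most abundant of the 8 in the RNA-seq at all times but 5 and 9 h AHS, when mei-9 was higher. Over the 7 time points its RNA had an FPKM of 30.5, 26.7, 17.8, 17.9, 27.7, 38.4 and 45.0. Both early times lay below the others, at 1.72-fold under no HS at 5 h AHS (log2 change -0.78, SE 0.42) and 1.70-fold at 9 h AHS (log2 change -0.77, SE 0.42). The bounds at both times overlapped those at no HS. From 9 to 38 h AHS the RNA was 2.51-fold higher (log2 change 1.33, SE 0.39), with bounds apart. The row shares its stretch of the chromosome with CG5004, a gene on the opposite strand, and it also takes in the RNA of mei-217. Whether fragments were counted by strand is not given in the sources used here. RNA-seq rows of mei-W68, rec, mei-9, okr and spn-B likewise share their stretch with other genes, and those of vilya and mei-P22 do not.

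Of 5 germline markers other than bam, 4 had less RNA at 9 h AHS than at no HS and 2, nos and bgcn, were called lower. RNA-seq of vas was 205, 184, 201, 199, 192, 205 and 211 FPKM. nos, which encodes a translational repressor, was also lowest at 5 and 9 h AHS but highest at 28 h AHS, with 83.3, 63.8, 30.9, 28.5, 65.3, 102 and 87.5 FPKM. bgcn, which encodes a partner of Bam, went from 40.5 FPKM at no HS to 25.1 at 9 h and 12.4 at 38 h AHS. Somatic muscle moved as well: the 6 muscle sheath markers were all below no HS at 5 and at 9 h AHS, and summed to 1406, 902, 801, 1141, 1279, 1478 and 1586 FPKM. At 5 h AHS 2 of the 6 passed the 1.6-fold limit. Of their footprints at 9 h AHS, those of 5 passed it downwards and those of Mhc upwards, with a sum of 541 FPKM at no HS and 300.2 at 9 h AHS, and the footprints of the 5 follicle cell markers summed to 3953 and 1781 FPKM, with Yp1 and Cp36 lower. Their RNA summed to 4555, 4657, 4188, 5937, 6510, 7809 and 7144 FPKM, above no HS at 9 h AHS and highest at 28 and 38 h AHS, and most of it was Yp1. At 5 h AHS, where the RNA of mei-218 was lowest, that of Cp36 was called higher, from 11.8 FPKM at no HS to 54.0. At 9 h AHS the RNA of cas and Cp36 was called lower. At 38 h AHS Cp36 was called higher in both assays, when the RNA of vilya and mei-218 was highest as well. The follicle cell markers did not move together at that time. RNA of cas (27.9 FPKM against 38.1 without heat shock) and br (20.1 against 25.4) was lower. Fas3 was close to its level without heat shock (212 against 209 FPKM), and Yp1 was higher (6789 against 4270). The escort and cap cell markers summed to 354 FPKM in the RNA-seq at no HS and 377 at 9 h AHS, with the cap cell marker en near 0. Of these 7 markers, 5 were below no HS at 9 h AHS and 0 were called. The sum was higher through fax (133 to 147 FPKM) and tj (108 to 128 FPKM). The part of these cells in the values of vilya and mei-218 was not tested.

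Among the 640 other genes called between any pair of time points in the RNA-seq, the one whose pattern was most like mei-218 was c(2)M, which encodes a lateral element protein of the synaptonemal complex. Pearson's r of log2(FPKM + 1) was 0.995 over 6 time points (0.5 h AHS left out), and c(2)M stood at 14.3, 12.1, 7.85, 7.89, 13.1, 18.0 and 19.2 FPKM. The next were Ssk, a septate junction protein, with r = 0.992, and Boot with r = 0.990. For vilya they were the dynein heavy chain Dhc98D (r = 0.980), the rhomboid protease gene stet (r = 0.978) and the piRNA pathway gene Gasz (r = 0.974). mei-218 and vilya had an r of 0.916 with each other, and 44 of the 640 genes were more like vilya than mei-218 was. These coefficients describe 6 pooled values, and the time points share their libraries across genes.

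mei-218 is read from an mRNA that it shares with mei-217, and both coding parts lie on the minus strand of the X chromosome (dm6; without stop codons mei-218 at chrX:17137080-17141112 and mei-217 at chrX:17141094-17142863). Of the 4 annotated mei-218 transcripts, 3 start at or upstream of the mei-217 start codon, and 1 starts downstream of it. Whether these 3 hold every coding exon of mei-217 was not tested. With the mei-217 stop codon the coding parts overlap by 22 bases. That overlap, with 4 bases on each side (chrX:17141087-17141116, minus strand, read from the RefSeq genome of the dm6 release), is printed below. The coding parts that meet there differ in footprint level, but footprints were not read by position. The first capitals are the mei-218 start codon and the second capitals are the mei-217 stop codon.
mei-217/mei-218: aagcATGtcatctacgaataaacTAGagaa
The mei-217 coding part holds 8 ATG triplets before this start codon, its own included. Of these, 4 are in the mei-217 frame and 0 in the mei-218 frame.

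Footprints per length were several-fold denser on the mei-217 coding part than on that of mei-218. The Ribo-seq table gives FPKM over coding sequence, as its gene spans equal the annotated coding spans for 99.7% of the 11761 genes with a span of their own. mei-217 and mei-218 are not among these: their rows share 1 span, which equals both coding parts joined, and how reads were split between them is not given in the sources used here. mei-217 had 32.7 Ribo-seq FPKM, 24.7, 14.1, 19.9, 28.6, 43.6 and 46.3. mei-218 had 5.03, 5.48, 2.65, 2.44, 5.66, 7.90 and 8.77 Ribo-seq FPKM at these times. Both were low at 5 and 9 h AHS and highest at 38 h AHS, and the bounds of the 2 coding parts were apart at all 7 time points. The ratio of mei-217 to mei-218 was 6.49 at no HS (log2 ratio 2.70, SE 0.48). It ranged from 4.50 at 0.5 h AHS to 8.16 at 9 h AHS, a spread of the log2 ratio from 2.17 to 3.03 with SEs between 0.37 and 0.56.

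A denser upstream part was common among such mRNAs. Of 93 annotated dicistronic pairs with footprints in both parts and over 10 FPKM in one of them at no HS, 72 had the higher footprint FPKM on the upstream part. The median ratio was 3.67, and the mei-217 to mei-218 ratio was rank 36 from the top. These pairs were not matched for the length of their coding parts.

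**Figure D2:**
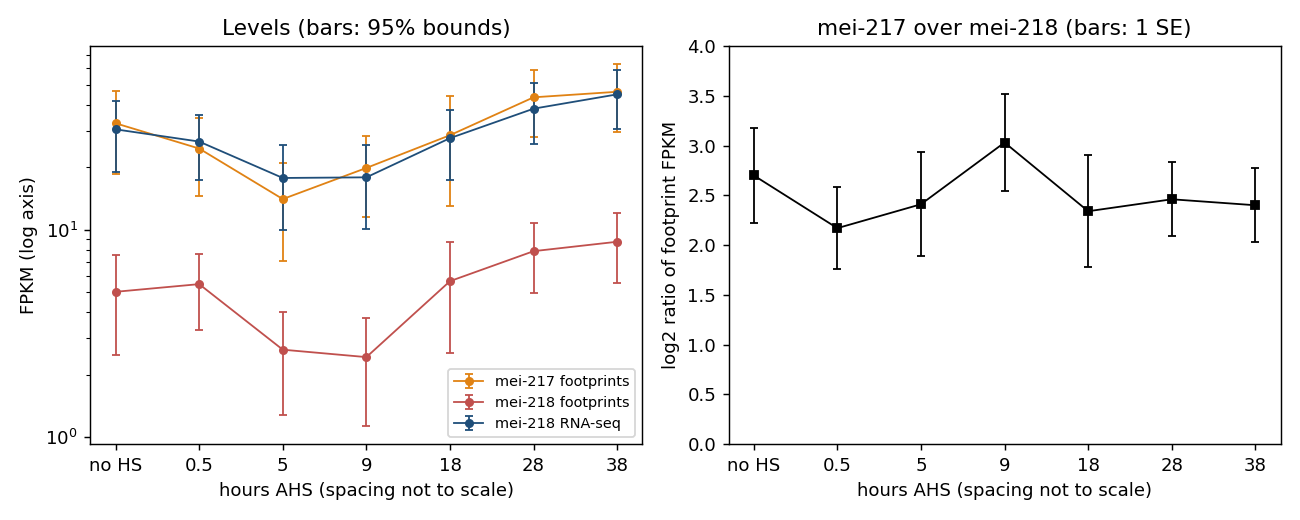
Left, FPKM on a log axis of mei-217 footprints (orange), mei-218 footprints (red) and mei-218 RNA-seq (blue) by time AHS, with bars for the deposited 95% bounds. Right, the log2 ratio of mei-217 to mei-218 footprint FPKM with bars of 1 SE, which stays between 2.17 and 3.03 while all 3 levels dip at 5 and 9 h AHS.

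Per length, mei-218 footprints thus never exceeded 10 FPKM, although its RNA was the most abundant of the 8 at 5 of the 7 time points. Its translation efficiency (TE), footprint FPKM divided by RNA FPKM, was 0.165 at no HS, lower than in all but 1.80% of 6441 genes, and 0.195 at 38 h AHS, where 2.41% of genes were lower. The median gene had a TE of 1.31 at no HS. Over the time course the log2 TE of mei-218 lay between -2.88 and -2.28, with SEs between 0.35 and 0.50. Set against the same RNA-seq row, mei-217 had a TE of 1.07 at no HS and 1.03 at 38 h AHS, and 40.1% of genes were lower at no HS. The RNA-seq table was searched for mei-217 with no match, so this TE rests on the shared row.

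mei-W68 makes the break itself. It lies on chromosome 2R (dm6, chr2R:19456170-19459523, plus strand) inside the annotated span of par-1 on the same strand. Its RNA-seq FPKM stood between 11.5 at 9 h and 16.0 at 38 h AHS, with 12.8 at no HS. The bounds ran from 0 to between 25.3 and 33.7 FPKM at every time point, so differences smaller than several-fold could not be seen in its RNA.

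Footprints on mei-W68 were measured with tighter bounds. Its Ribo-seq FPKM was 4.91, 15.0, 7.90, 8.36, 4.19, 7.23 and 13.0. The highest values were those right after the heat shock and at the end. At 0.5 h AHS the footprints were 3.05-fold above no HS (log2 change 1.61, SE 0.59) with bounds apart. It was the 1 member called higher there, beside 7.67% of 6441 genes, which leave out the study's heat shock genes. At 38 h AHS they were 2.64-fold above no HS (log2 change 1.40, SE 0.60), but the bounds of 7.33 to 18.6 FPKM overlapped those of 1.47 to 8.36 FPKM at no HS. It was the 1 member called higher at 38 h AHS, beside 1.99% of all genes. A difference over 3-fold at 0.5 h AHS keeps mei-W68 itself out of the 6383 genes of the Ribo-seq background, so without it the count at 38 h AHS is 0.

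mei-P22, the partner of mei-W68 in break formation, is a gene of 1 coding exon on chromosome 3L (dm6, chr3L:7244388-7245383, plus strand) with no overlapping gene. In the RNA-seq it had 4.46, 4.85, 3.68, 3.36, 4.62, 6.0 and 6.78 FPKM. As for vilya, 9 h AHS was lowest and 38 h AHS highest, 2.02-fold apart (log2 change 1.01, SE 0.26) and with bounds apart. The level stayed under 10 FPKM and therefore could not be called. Its Ribo-seq FPKM went from 1.10 at no HS to 3.42 at 38 h AHS, with bounds that overlapped at every time point. Judged from the commonest step between low values, taken as 1 read, these amounted to only about 8.1 reads at no HS and 21 at 38 h AHS.

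**Figure D3:**
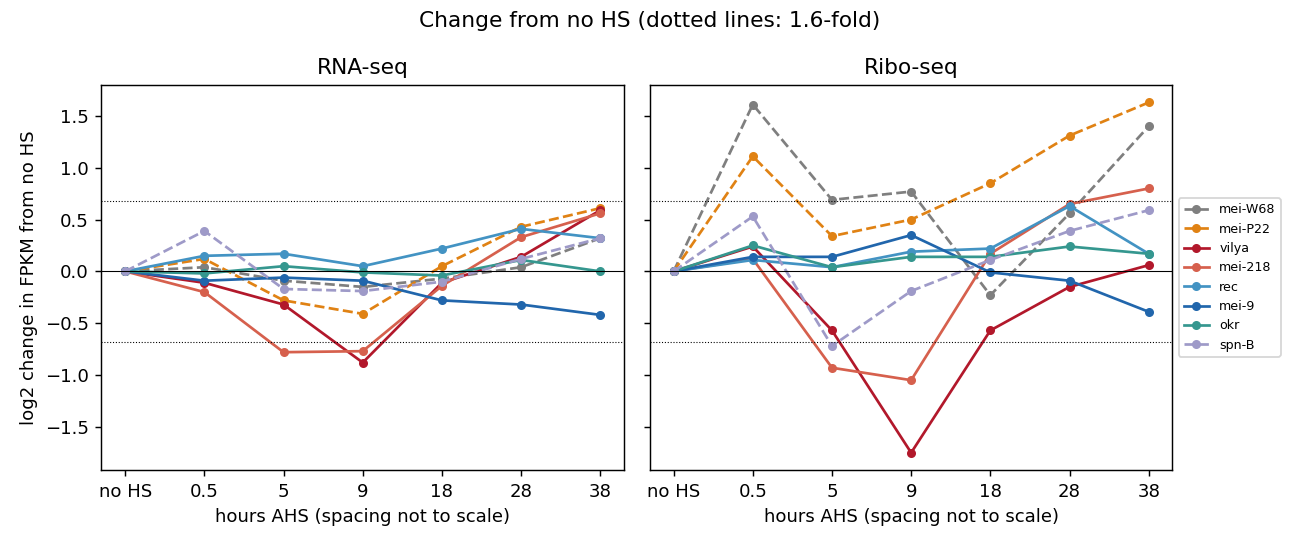
Log2 change of FPKM from no HS (y axis) against time AHS (x axis, spacing not to scale), RNA-seq left and Ribo-seq right, 1 line per gene, with dotted lines at 1.6-fold. In the RNA-seq only vilya and mei-218 cross the lower line, while rec, mei-9 and okr stay within it in both assays. mei-W68, mei-P22 and spn-B are dashed for their low values or wide bounds.

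rec encodes the MCM8 relative that works with Mei-217 and Mei-218. The RNA of rec stood at 12.8, 14.2, 14.4, 13.2, 14.9, 17.1 and 16.0 FPKM, a spread of 1.33-fold. Unlike mei-218 it had no trough at 5 or 9 h AHS. Its Ribo-seq FPKM ran from 12.6 at no HS to 19.6 at 28 h AHS, 1.55-fold apart (log2 change 0.63, SE 0.28) with overlapping bounds. rec shares its Ribo-seq span with CG4576, which lies on the other strand.

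mei-9 encodes the XPF-type endonuclease of crossover resolution and nucleotide excision repair. For mei-9 the RNA-seq FPKM was 19.8, 18.6, 19.1, 18.7, 16.4, 15.9 and 14.9. It was the 1 member with the highest RNA at no HS and the lowest at 38 h AHS, 1.33-fold apart (log2 change -0.42, SE 0.19) with overlapping bounds. Footprints on mei-9 had an FPKM of 12.2, 13.4, 13.5, 15.6, 12.1, 11.4 and 9.33. The highest, at 9 h AHS, and the lowest, at 38 h AHS, differed 1.67-fold (log2 change -0.74, SE 0.29), also with overlapping bounds. With vilya and mei-W68 that made 3 of the 8 called between any pair of 6 time points in the Ribo-seq, beside 30.8% of all genes. The background of that share leaves mei-W68 out. No member was called higher at 9 h AHS in the Ribo-seq (3.24% of all genes), and none was called lower at 38 h AHS (3.46%).

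okr, the Rad54 gene, was the steadiest of the 8. Its RNA-seq FPKM lay between 15.8 and 17.6 over the 7 time points, with a median of 16.3, and its Ribo-seq FPKM between 13.4 and 15.9, with a median of 14.8. The highest value was 1.11-fold over the lowest in the RNA-seq and 1.19-fold in the Ribo-seq. The SE of a log2 change was 0.28 or 0.29 in both assays, so changes of this size lie within the error.

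spn-B, a gene of break repair in the female germline, had low values in both assays. Its RNA-seq FPKM lay between 4.39 and 6.55, with a median of 4.99, and its Ribo-seq FPKM between 0.894 and 2.22, with a median of 1.59. The median SE in the RNA-seq was 48.9% of the FPKM, against 14.2% for spn-D, whose row shares its stretch with no other gene. The Ribo-seq bounds reached 0 at every time point. By the same reckoning as for mei-P22 the footprints amounted to about 7.3 reads at 5 h AHS and 15 at 28 h AHS, so no difference was detectable at this depth. spn-D, which serves the same repair, had similar RNA (5.22 FPKM at no HS and 4.22 at 38 h AHS). Its footprints were denser, with 15.6, 13.2, 11.9, 9.24, 7.77, 11.0 and 14.5 FPKM over the time course. They were called lower at 9 h AHS (1.69-fold, log2 change -0.76, SE 0.55) and 18 h AHS (2.01-fold, log2 change -1.01, SE 0.59), and higher from 18 to 38 h AHS (1.87-fold), each with overlapping bounds. The TE of spn-D at no HS was 2.99 against 0.295 for spn-B, whose log2 TE had an SE of 1.26.

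The TE of the members covered a wide range and differed from no HS by less than 2 SE at every time point. At no HS it ran from 0.165 for mei-218 to 1.40 for vilya, with rec at 0.986, okr at 0.824 and mei-9 at 0.614. Below mei-9 came mei-W68 at 0.385, spn-B at 0.295 and mei-P22 at 0.247, with SEs of at least 1.00 on the log2 scale, so these neighbours do not differ beyond their error. vilya was near the median gene at 1.31. At 9 h AHS vilya was called lower in TE, at 0.768 (log2 change -0.86, SE 0.70), beside 7.79% of all genes. mei-W68 was called higher at 9 h AHS (log2 change 0.92, SE 1.38) beside 2.60% of all genes, and at 38 h AHS (log2 change 1.08, SE 1.32) beside 1.38%. It was also called at 0.5 h AHS (log2 change 1.57, SE 1.34) beside 3.46% and at 5 h AHS (log2 change 0.77, SE 1.46) beside 0.987%. The shares at 5, 9 and 38 h AHS are of a background that leaves mei-W68 out.

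**Figure D4:**
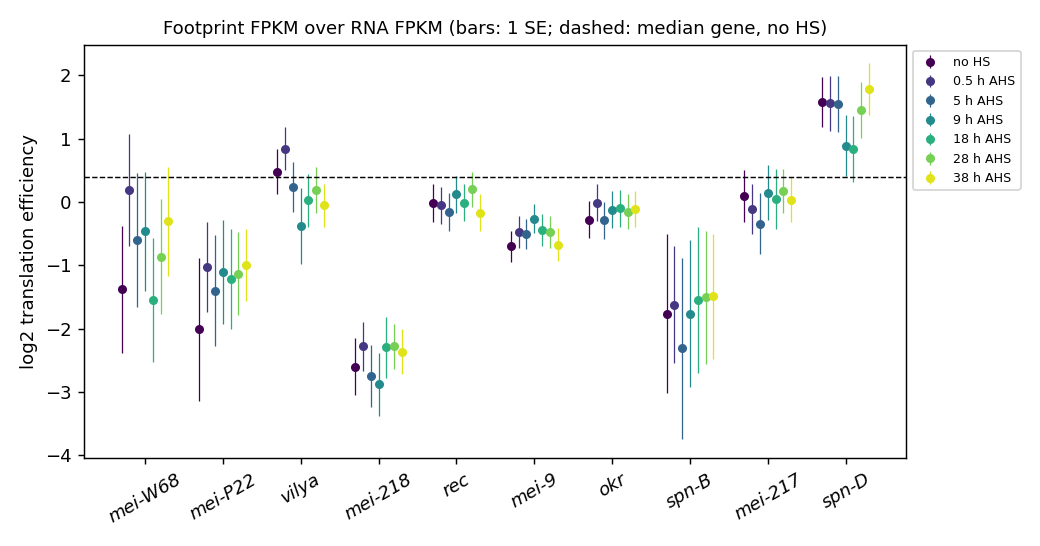
Log2 TE (y axis) of the 8 genes, mei-217 and spn-D (x axis), 1 point per time point with bars of 1 SE and a dashed line at the median gene at no HS. mei-218 lies lowest between -2.88 and -2.28, and mei-217, set against the RNA of mei-218, lies near 0.

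For the wider pathway, 47 genes in several lists were used, of which 44 were in both tables and 37 passed the filter on low values in each assay. At the RNA level, the calls at 9 h AHS were 1 of the 37 up (0.745% of all genes) and 1 down (1.65%), and those at 38 h AHS were 1 up (1.77%) and 0 down (0.528%). Of the same genes, footprints gave 2 calls up (3.24% of all genes) and 1 down (6.36%) at 9 h AHS, and 1 up (1.99%) and 1 down (3.46%) at 38 h AHS. With counts this small no difference from all genes can be read.

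Among the partners in break formation and crossing over, 5 genes passed the filter. narya, a RING finger gene related to vilya, was called higher at 38 h AHS in both assays. Its RNA-seq FPKM was 8.21, 9.55, 6.17, 4.64, 10.5, 16.0 and 13.7, low at the times when vilya was low. Its footprints went from 26.8 FPKM at no HS to 53.8 at 38 h AHS (log2 change 1.00), and the bounds overlapped in both assays. Its sister gene nenya, picked out after its values were seen, had 11.0, 9.20, 7.54, 7.38, 11.3, 15.6 and 14.7 RNA-seq FPKM and was not called. Mcm5, a replication helicase subunit, was called higher in footprints at 9 h AHS, from 86.2 to 138 FPKM with bounds apart. mei-217 was called lower in footprints at 5 h AHS (2.32-fold, log2 change -1.21, SE 0.48) and at 9 h AHS (1.64-fold), with overlapping bounds, but it stands outside the 37 for want of an RNA-seq row.

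In the other lists, 9 genes of resection, strand exchange and the Bloom helicase passed the filter (spn-D did not, for its low RNA) and none of the 9 was called at 9 or 38 h AHS in either assay, nor was any of 4 end joining genes. Of 10 checkpoint genes only lok, the Chk2 kinase that responds to breaks, was called. The RNA of lok had an FPKM of 103, 92.6, 72.3, 63.6, 86.1, 111 and 101 over the time course. Its footprints went from 127 FPKM at no HS to 57.8 at 9 h AHS (log2 change -1.14) and 102 at 38 h AHS. At 9 h AHS the bounds lay below those of no HS in both assays. Of 9 genes of nucleases, mismatch repair and the Fanconi pathway, Fancl, a ubiquitin ligase, was called higher at 9 h AHS in the RNA-seq (7.81 to 12.9 FPKM) and in footprints (12.3 to 23.3 FPKM). Pms2, a mismatch repair protein, was called lower in footprints at 38 h AHS (17.7 to 10.9 FPKM). For both, the bounds overlapped.

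Taking the 8 genes as a group, the median of the log2 changes in RNA was -0.17 at 9 h AHS and 0.32 at 38 h AHS, beside 0.06 and 0.05 over all genes tested. For footprints the median was 0.17 at 9 h AHS and 0.38 at 38 h AHS, beside 0.00 and -0.05. Of the 8, mei-P22 and spn-B lie outside both backgrounds for their low RNA, and mei-W68 outside that of the Ribo-seq. Their footprints changed by 1.63 (SE 1.24), 0.59 (SE 1.22) and 1.40 (SE 0.60) at 38 h AHS. Those of the 5 within it changed by 0.06 (vilya), 0.80 (mei-218), 0.17 (rec), -0.39 (mei-9) and 0.17 (okr). At 0.5 h AHS all 8 members had more footprints than at no HS. Their log2 changes ran from 0.11 for rec to 1.61 for mei-W68, with a median of 0.24. Of 6354 background genes, 54.7% lay above no HS. That background was itself filtered on 0.5 h AHS, as it leaves out the study's heat shock genes, so the 2 are not like for like. Apart from mei-W68, the bounds of each overlapped those at no HS.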

How the data were processed

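Cuffdiff FPKM values deposited by the authors were used for both assays (RNA-seq, stranded and rRNA-depleted; Ribo-seq, RNase I footprints). The submitters' processing notes name Bowtie, Bowtie2, STAR, dm6 and Cuffdiff 2.2.1; the methods add Trim Galore, removal of non-coding RNA reads and of redundant footprint reads. Annotation and library normalization are not given in the sources used here. Each deposited FPKM pools 2 replicates, so it carries only its 95% bounds, 2 SE from the value and floored at 0. Total depth is not given. The commonest step between low Ribo-seq values (FPKM times coding length in kb) was 0.125 at 5 h AHS, with 147 genes, and 0.275 at 18 h AHS, with 32 genes. Whether the step at 18 h AHS stands for 1 read was not tested, so read counts at that time are not given.

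Calls (over 1.6-fold, over 10 FPKM) followed the study's thresholds without its p-value. Background genes had a Ribo-seq row and over 10 FPKM in the RNA-seq outside 0.5 h AHS. They left out the study's 132 heat shock and contaminant genes. In the Ribo-seq and for TE they also left out those with footprints over 3-fold different at 0.5 h AHS, except for calls at 0.5 h AHS. TE was called with RNA-seq over 10 FPKM. SEs of log2 changes came from error propagation. Python 3.11.15, numpy 2.4.6 and matplotlib 3.10.9 were used, and the call rule was tested on simulated data. Positions are from the BDGP6.54 annotation.

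The members and lists were chosen with earlier results of these data known. Of the set as chosen, 1 gene is not reported here. Named were all members at every time point, list genes called at 9 or 38 h AHS, mei-217 and spn-D, and the 3 genes most similar to each member called in the RNA-seq. Alternatives were a threshold of 2-fold, a minimum of 20 FPKM or none, a pseudocount of 1 FPKM, rescaled medians and bounds that must not overlap. Columns with the status of each estimate were not tested, and the lists' PolQ, with no match in either table, was not analysed here.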

Additional observations from a re-analysis of the deposited data

How the results depend on the processing

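No paired analysis was possible because the 2 tables used here hold 1 value per gene and time point, pooled over the replicates, and no counts per replicate were used. Leaving out a replicate was not run for the same reason. Of 114 alternative counts of members called, 83 stayed within 1.5 times and 31 moved. Many of the 83 were 0 to begin with and stayed 0. All 96 alternative log2 changes of single members stayed within 1 SE of the values given. Their only alternatives were a pseudocount of 1 FPKM and rescaled medians. The rescaling was too small to move a value by 1 SE, so it could not have come out otherwise. In the RNA-seq, a threshold of 2-fold left 0 of 1 calls at 5 h AHS and 0 of 2 at 9 h AHS. Bounds that must not overlap left 0 at 5 h AHS and 1 (vilya) at 9 h AHS. A minimum of 20 FPKM left 1 (mei-218) at 9 h AHS and 1 between any pair. In the Ribo-seq, a minimum of 20 FPKM left 0 at 0.5, 9 and 38 h AHS and between any pair. Without a minimum the Ribo-seq counts were, from 0.5 to 38 h AHS, 2, 3, 3, 1, 1 and 3, with 6 between any pair, the added genes being mei-W68, mei-P22, mei-218 and spn-B. Rescaled medians gave 1 (rec, higher) at 28 h AHS. Bounds that must not overlap left 0 at 38 h AHS and 1 (vilya) between any pair. For TE, a minimum of 20 FPKM left 0 at 0.5, 5, 9 and 38 h AHS. A threshold of 2-fold left 0 at 5 and 9 h AHS, and a pseudocount left 0 at 5 h AHS. Without a minimum the TE counts were 2 (0.5 h), 1 (18 h), 1 (28 h) and 2 (38 h AHS). Rescaling moved the median gene by at most 0.078 on the log2 scale. The RNA-seq bounds of mei-W68 and spn-B and the few footprints on mei-P22 and spn-B limit what can be said of these genes.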
